A study of Homo sapiens with 4 samples.

Results

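The small structured RNAs studied here are 7 genes, RN7SK, RN7SL1, RN7SL2, RMRP, RPPH1, TERC and SCARNA2, of the 60671 Ensembl genes listed for each library. They were picked by name, and they were picked because RNAs without a poly(A) tail had differed between the shRNAs in opposite directions in the 2 cell lines, so the differences between shCON and shDDX52 given below are a description of the values behind that choice and carry no test. All 7 symbols matched 1 Ensembl identifier each. The libraries came from 22RV1 and PC3, established human prostate carcinoma cell lines, each infected with lentivirus carrying a control shRNA (shCON) or an shRNA against DDX52 (shDDX52), which encodes a DEAD-box RNA helicase, and kept as puromycin-selected stable transformants. Each shRNA was a single sequence in the same vector, so an effect of DDX52 loss cannot be told apart from an effect of that one sequence. There were 4 libraries, 1 per condition, and hence no replicate against which a difference could be judged. The authors deposited TPM, a length-corrected share of all transcripts, which keeps no sequencing depth. The kit named for the libraries was a TruSeq RNA kit on total RNA, and the sources used here state neither poly(A) selection nor removal of rRNA.

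These RNAs act as RNA, not as messages, and work inside protein complexes. 7SK RNA (RN7SK) holds the elongation kinase P-TEFb in an inactive particle, 7SL RNA (RN7SL1 and RN7SL2) is the scaffold of the signal recognition particle that brings ribosomes to the endoplasmic reticulum, RMRP and RPPH1 are the RNAs of RNase MRP and RNase P, which cut precursor rRNA and precursor tRNA, TERC is the template RNA of telomerase, and SCARNA2 guides modification of spliceosomal U2 snRNA in Cajal bodies. The first 5 are made by RNA polymerase III and end without a poly(A) tail, and TERC and SCARNA2 are made by RNA polymerase II and are trimmed to a mature end that is not polyadenylated.

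The sequences of RN7SK, RMRP and RPPH1 are given because they show how few adenines in a row these RNAs hold. They are the GENCODE 29 transcripts on GRCh38 in DNA letters, RN7SK and RPPH1 over positions 1 to 300, and capitals mark the longest runs of A.
RN7SK: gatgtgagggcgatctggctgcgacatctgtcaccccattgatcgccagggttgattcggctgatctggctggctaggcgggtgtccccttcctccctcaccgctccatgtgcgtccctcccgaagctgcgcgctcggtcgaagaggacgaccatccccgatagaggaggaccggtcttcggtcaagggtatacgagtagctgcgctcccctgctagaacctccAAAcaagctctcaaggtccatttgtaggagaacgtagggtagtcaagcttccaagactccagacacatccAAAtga
RMRP: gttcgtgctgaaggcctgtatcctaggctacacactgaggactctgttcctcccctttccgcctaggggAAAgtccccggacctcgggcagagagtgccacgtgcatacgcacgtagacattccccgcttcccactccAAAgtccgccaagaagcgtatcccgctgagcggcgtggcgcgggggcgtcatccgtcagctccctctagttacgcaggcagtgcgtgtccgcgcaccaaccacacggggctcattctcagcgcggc
RPPH1: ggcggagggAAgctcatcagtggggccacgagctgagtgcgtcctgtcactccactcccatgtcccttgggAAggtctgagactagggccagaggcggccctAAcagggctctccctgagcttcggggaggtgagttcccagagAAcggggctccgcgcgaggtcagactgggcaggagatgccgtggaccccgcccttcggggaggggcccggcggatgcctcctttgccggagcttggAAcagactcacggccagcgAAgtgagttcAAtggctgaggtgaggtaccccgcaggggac
RN7SK lies on chromosome 6 from 52995621 to 52995948 on the plus strand, RMRP on chromosome 9 from 35657754 to 35658017 on the minus strand, and RPPH1 on chromosome 14 from 20343075 to 20343407 on the minus strand. RN7SL1 and RN7SL2 both lie on chromosome 14 and shared 295 of 300 aligned bases, an identity of 98.3%. The transcripts of these 5 genes have no introns, are 264 to 333 bases long, and have a GC content of 58.2% to 64.6%. The longest run of A was 4 bases in RN7SL1 and in RN7SL2, 3 in RN7SK and in RMRP, and 2 in RPPH1. A run of at least 4 was found in 79.7% of the 61365 GENCODE 29 transcripts of 250 to 600 bases, whose median longest run was also 4. For the 83129 protein-coding transcripts, taken at any length, the median was 5. TERC held a run of 6 and SCARNA2 a run of 4.

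A few facts of the libraries touch every value below. The listed TPM summed to between 984448 and 990860. DDX52 was at 24.6% of its control TPM in 22RV1 shDDX52 and at 22.5% in PC3 shDDX52. Of 8 genes listed as 22RV1 markers, 7 were higher in both 22RV1 libraries than in both PC3 libraries, the exception being SLC45A3, and 5 of 5 PC3 markers were higher in both PC3 libraries. KLK2, a prostate luminal kallikrein gene, was at 32.6 and 23.1 TPM in 22RV1 and listed at 0 in PC3. Some PC3 markers moved with the members: VIM was at 12.6 TPM under shCON and 66.7 under shDDX52 in PC3, AXL at 32.6 and 79.3 TPM, and CD44 at 17.1 and 7.01 TPM in 22RV1. CAV1 and ANXA1 were lower with shDDX52 in PC3, at 162 and 130 TPM and at 137 and 94.3 TPM. The part of these marker genes in the results was not tested. Among 6 markers of other cell types, SYP was at 19.7 TPM under shCON and 35.6 under shDDX52 in 22RV1, and under 1 TPM in PC3. COL1A1 was at 2.81 and 4.77 TPM in 22RV1 and at 8.65 and 7.84 TPM in PC3. PECAM1 was at 5.03 and 0.85 TPM in PC3. PTPRC, a leukocyte gene, CHGA and COL3A1 were under 1 TPM throughout. The libraries 22RV1 shCON and PC3 shDDX52 stood apart in 5.8S rRNA. Each of the 8 listed copies of the 5.8S rRNA gene had the same values, with 1488 TPM under shCON and 108 under shDDX52 in 22RV1 but 114 and 3852 TPM in PC3. No library could be left out of a comparison, since each is the only one of its condition.

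RN7SK was at 493 TPM under shCON and 69.1 under shDDX52 in 22RV1, and at 37.5 and 935 TPM in PC3. It was therefore lower with shDDX52 in 22RV1, at 14.02% of its control, and 24.9-fold higher with shDDX52 in PC3. On the scale used for all genes, the log2 ratio of shDDX52 to shCON after adding 1 to each TPM, these differences were −2.82 and 4.60. The control libraries of the lines were themselves far apart for 7SK, with 13.1-fold more TPM in 22RV1 shCON than in PC3 shCON.

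The 7SL pair had the highest levels of the 7 genes in every library. RN7SL1 was at 669 TPM under shCON and 187 under shDDX52 in 22RV1, and at 719 and 6843 TPM in PC3. RN7SL2 was at 648, 241, 754 and 5677 TPM in the same order. Both copies were lower with shDDX52 in 22RV1 and higher in PC3, and unlike 7SK their control levels were close, with a PC3 shCON level 1.08 times that of 22RV1 shCON for RN7SL1 and 1.16 times for RN7SL2. The log2 ratios were −1.83 and 3.25 for RN7SL1 and −1.42 and 2.91 for RN7SL2, 22RV1 first. Among all genes by TPM in PC3, RN7SL1 ranked 214 and RN7SL2 ranked 202 under shCON, and 9 and 13 under shDDX52. In 22RV1 their ranks were 219 and 229 under shCON, and 774 and 595 under shDDX52.

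RMRP, the RNase MRP RNA, was at 297 TPM under shCON and 24.9 under shDDX52 in 22RV1, and at 50.8 and 979 TPM in PC3. RPPH1, the RNase P RNA, was at 77.8, 2.83, 17.2 and 429 TPM. Among the 5 RNAs found in every library these were the furthest apart between the shRNAs in 22RV1, with RMRP at 8.38% and RPPH1 at 3.64% of the control. The log2 ratios in 22RV1 were −3.53 for RMRP and −4.36 for RPPH1. In PC3 RMRP was 19.3-fold and RPPH1 24.9-fold higher with shDDX52, and their log2 ratios were 4.24 and 4.56. The related RNAs thus lay close to one another in PC3, and close to RN7SK, but RPPH1 was further down than RMRP in 22RV1.

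**Figure D1:**
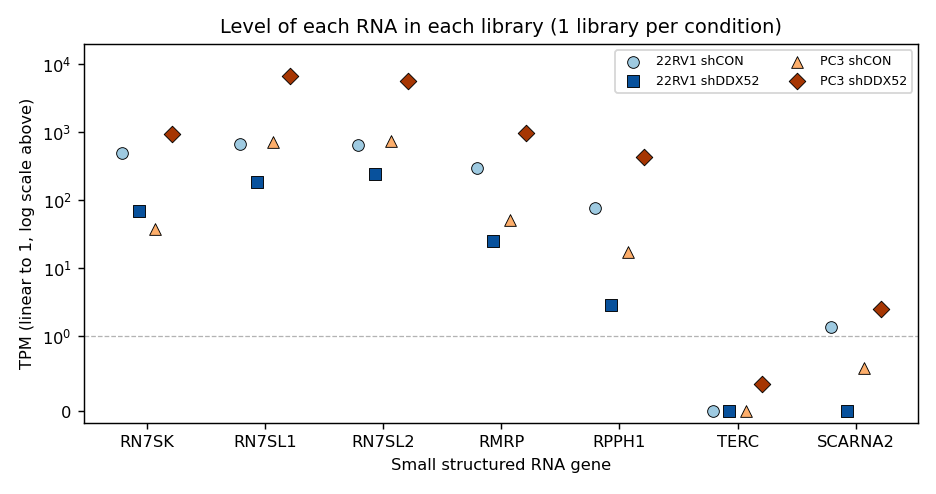
TPM of the 7 genes in the 4 libraries, 1 point per library, on an axis that is linear up to 1 TPM (dashed line) and logarithmic above. For RN7SK, RN7SL1, RN7SL2, RMRP and RPPH1 the 22RV1 shDDX52 point lies below the 22RV1 shCON point and the PC3 shDDX52 point above all others, while TERC stays under 1 TPM and SCARNA2 under 3.

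SCARNA2 was barely detected, at 1.34 TPM with shCON and listed at 0 with shDDX52 in 22RV1, and at 0.58 and 2.54 TPM in PC3. It reached 1 TPM only in the libraries in which the other members were also high, so it passed the filter only through them, and its log2 ratios of −1.23 and 1.16 rest on values near the pseudocount. TERC was listed at 0 in 3 libraries and at 0.36 TPM in PC3 shDDX52. The identifier paired with the symbol TERC (ENSG00000270141, chromosome 3 from 169764520 to 169765060, minus strand) covers 541 bases, and a second identifier, ENSG00000277925, lies inside it over 438 bases. That second identifier was at 0.90 TPM under shCON and 1.95 under shDDX52 in 22RV1, and at 0.26 and 2.22 TPM in PC3. Its level was higher with shDDX52 in both lines, with log2 ratios of 0.63 and 1.35, and so was not opposite as in the 5 abundant RNAs, but all of its values are close to the pseudocount.

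Over all 7 genes, 6 were lower with shDDX52 in 22RV1, 0 were higher, and TERC was listed at 0 in both libraries. In PC3 all 7 were higher, but TERC only from 0 to 0.36 TPM, below the filter of 1 TPM. Of all genes that passed the filter, 58.8% were lower in 22RV1 and 46.3% were higher in PC3. At least 2-fold lower in 22RV1 were 6 genes, where 2.86% of the 14438 genes reaching 1 TPM in a 22RV1 library were. At least 2-fold higher in PC3 were also 6 genes, where 2.86% of 14262 genes were. Both at once, lower in 22RV1 and higher in PC3, was met by 0.411% of the 12175 genes measured in both lines, or 50 genes, and the opposite pattern by 38 genes, 0.312%. None of the members was past 2-fold the other way, higher in 22RV1 as 2.24% of genes were or lower in PC3 as 3.44% were. Among genes with at least 5 TPM, a 2-fold lower level was met by 1.81% and a 2-fold higher level by 1.40% in 22RV1, and by 2.45% and 2.17% in PC3. Nothing is read from the members' counts, since they were chosen on this contrast. The median log2 ratio of the 7 genes was −1.83 in 22RV1 and 3.25 in PC3, and over all genes it was −0.076 and −0.036. Ordered by log2 ratio from the lowest, the 5 abundant RNAs took ranks 15 (RPPH1) to 161 (RN7SL2) of 14438 in 22RV1, and from the highest, ranks 35 (RN7SK) to 67 (RN7SL2) of 14262 in PC3. In cells measured in bulk, a lower RNA level per cell and fewer cells that hold the RNA cannot be told apart.

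**Figure D2:**
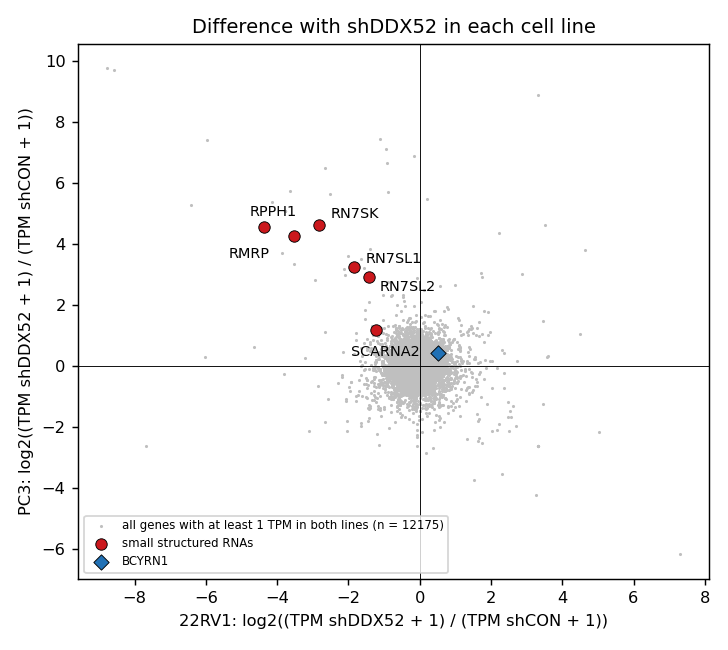
Log2 ratio in PC3 (vertical axis) against that in 22RV1 (horizontal axis) for the 12175 genes with at least 1 TPM in both lines (grey), the 6 small structured RNAs that reached it (red circles) and BCYRN1 (blue diamond). The red points lie at the upper left, between −4.36 and −1.23 (22RV1) and between 1.16 and 4.60 (PC3), and BCYRN1 lies near the centre, above 0 in both lines.

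Together the 7 genes held 0.221% of the 22RV1 TPM with shCON and 0.0530% with shDDX52, and 0.159% and 1.51% of the PC3 TPM. The 7SL pair made up 60.3%, 81.6%, 93.3% and 84.2% of that sum. The makeup of the group therefore differed most between the control libraries, where the 7SL pair was at nearly equal TPM in both lines and the other RNAs were not.

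The members did not move by 1 common factor. Set against RN7SL1 plus RN7SL2 in the same library, a ratio that does not depend on how the rest of the library was scaled, RN7SK was at 37.4% with shCON and 16.1% with shDDX52 in 22RV1, and at 2.55% and 7.47% in PC3. RMRP was at 22.5%, 5.81%, 3.45% and 7.82%, and RPPH1 at 5.91%, 0.661%, 1.17% and 3.43%. All 3 RNAs were thus lower relative to 7SL in 22RV1 shDDX52 than in its control, and higher relative to 7SL in PC3 shDDX52 than in its control. Within the 7SL pair the division was steadier, with RN7SL1 holding 50.8%, 43.6%, 48.8% and 54.7% of the sum. RMRP was below RN7SK in both 22RV1 libraries, at 60.2% and 35.97% of its TPM, and above it in both PC3 libraries, at 135% and 105%. The RMRP values leave out a second identifier over the same bases. That identifier was at 28.6 TPM under shCON and 12.6 under shDDX52 in 22RV1, and at 0 and 173 TPM in PC3, so these ratios depend on how shared reads were divided. The order 7SL, then RN7SK and RMRP, then RPPH1 held in all 4 libraries.

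**Figure D3:**
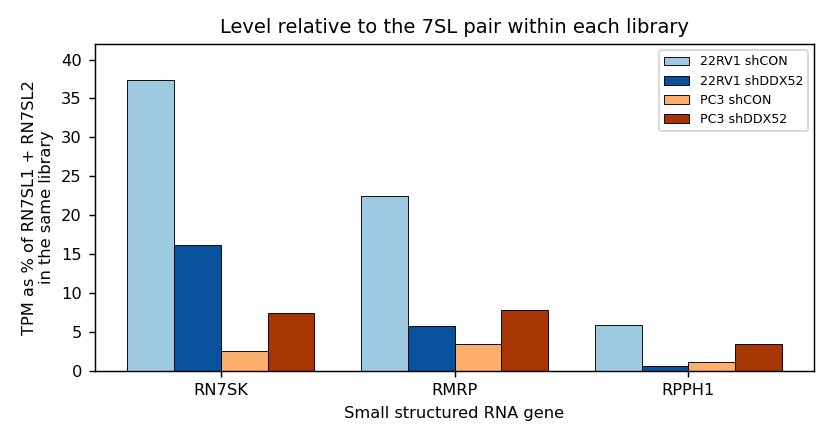
TPM of RN7SK, RMRP and RPPH1 as a percent of RN7SL1 plus RN7SL2 in the same library, 1 bar per library. The 22RV1 shCON bars are the tallest of each gene, at 37.4%, 22.5% and 5.91%, and in PC3 each shDDX52 bar is taller than its shCON bar.

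How reads shared between identifiers were counted bears on these values. Of the 250 windows of 50 bases in RN7SL1, 0 were found in this gene alone among GENCODE 29 transcripts, and 10 other genes shared at least 1 of them. In RN7SL2, 13.5% of 251 windows were its own. Summed, the pair was at −1.62 on the log2 scale in 22RV1 and at 3.09 in PC3, between those of the copies. RN7SL3, another copy on chromosome 14, was at 8.51 TPM under shCON and 4.12 under shDDX52 in 22RV1, and at 15.1 and 106 TPM in PC3. RN7SL3 was thus on the side of the pair in both lines. Of the other 677 genes with a 7SL symbol, 616 were listed at 0 in all 4 libraries. Their summed TPM was 29.95, 51.7, 29.6 and 23.2, higher with shDDX52 in 22RV1 and lower in PC3, the opposite of the pair. RN7SL138P, the highest of them by mean, was at 4.39, 5.97, 1.85 and 0.93 TPM. The 293 genes with an RN7SKP symbol summed to 3.59, 16.1, 2.20 and 3.26 TPM, and RN7SKP80 was at 1.17, 6.30, 0 and 0.

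RMRP, RPPH1, RN7SK and SCARNA2 each share their bases with a second identifier on the same strand. GENCODE 29 names RMRP 2 times, and its second gene, ENSG00000269900, covers all 264 bases of the first. It was at 28.6 TPM under shCON and 12.6 under shDDX52 in 22RV1, and listed at 0 with shCON and at 173 TPM with shDDX52 in PC3. Adding it moved the log2 ratio of RMRP to −3.09 in 22RV1 and to 4.48 in PC3. Over RPPH1, the 638-base transcript ENSG00000259001 covers all 333 bases and was at 3.05, 0, 0.14 and 12.8 TPM, the same directions as RPPH1. The second identifiers over RN7SK (ENSG00000202198) and SCARNA2 (ENSG00000270066) were listed at 0 in all 4 libraries. In RN7SK, RMRP, RPPH1 and SCARNA2, 0 windows of 50 bases were found in the gene alone, so each single value depends on how the authors' program divided shared reads.

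The protein genes that work with these RNAs were nearer to 0 than the RNAs. Since the RNAs were chosen for their differences, nothing is read from that contrast. Over 7 lists of partner and processing proteins, 58 genes in all, 57 had at least 1 TPM in 22RV1 and 57 in PC3. In 22RV1, 45 were lower and 12 higher with shDDX52, 1 of them past 2-fold, where 2.86% of all genes were past 2-fold lower and 2.24% past 2-fold higher, and the median log2 ratio was −0.11. In PC3, 37 were lower and 20 higher, 0 past 2-fold, where 3.44% and 2.86% of all genes were, and the median was −0.20. With 0.411% of all genes lower in 22RV1 and higher in PC3, lists of this size need not hold such a gene, so nothing is read from its absence. Over all genes, 58.8% were lower with shDDX52 in 22RV1 and 53.5% in PC3, and the medians were −0.076 and −0.036. Recomputing TPM over nuclear protein-coding genes moved the last of these to 0.083. Among the 7SK particle and P-TEFb genes (7 genes), medians were −0.078 in 22RV1 and −0.16 in PC3. HEXIM1, which inhibits P-TEFb when bound to 7SK, was the furthest from 0 in both lines, at 22.2 and 17.8 TPM in 22RV1 and at 68.4 and 38.8 TPM in PC3, shCON first, with log2 ratios of −0.30 and −0.80. LARP7, which binds the 3′ end of 7SK and keeps it stable, was at 10.2 and 9.65 TPM in 22RV1 and at 8.74 and 7.74 in PC3.

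For the signal recognition particle proteins and their receptor (8 genes), medians were −0.11 and −0.25. The genes furthest from 0 were SRP68, from 57.6 to 40.3 TPM in 22RV1, and SRP19, from 47.5 to 31.5 TPM in PC3. The RNase P and RNase MRP proteins (11 genes) had medians of −0.15 and −0.26, and 10 of 11 were lower with shDDX52 in PC3, as were 53.5% of all genes. POP4, a subunit of both enzymes, was the lowest in each line, with 27.5 TPM under shCON and 17.3 under shDDX52 in 22RV1, 70.4 and 41.5 in PC3, and log2 ratios of −0.65 and −0.75. MALAT1 and NEAT1, long nuclear RNAs whose 3′ ends are cut by RNase P, were lower in both lines, with log2 ratios of −0.11 and −0.29 for MALAT1 and −0.72 and −0.41 for NEAT1.

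Telomerase and H/ACA proteins (8 genes) held the single partner gene past 2-fold. In 22RV1, NAF1, an assembly factor of H/ACA particles, was at 34.9 TPM under shCON and 10.7 under shDDX52, a log2 ratio of −1.62, and at 6.46 and 8.23 TPM in PC3. The mature H/ACA proteins DKC1 and NHP2 had log2 ratios of −0.11 and −0.10 in 22RV1 and 0.065 and 0.051 in PC3, and GAR1, the lowest of the list in PC3, had −0.47 in 22RV1 and −0.54 in PC3. TERT, the catalytic subunit of telomerase, was at 7.68 and 8.87 TPM in 22RV1 and at 0.39 and 0.13 TPM in PC3. Genes for C/D box and Cajal body proteins (5 genes) had medians of 0.031 and −0.22, with COIL furthest from 0 in 22RV1 at −0.32 and NOP58 in PC3 at −0.47.

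The factors that start RNA polymerase III at promoters upstream of the gene, as at RN7SK, RMRP and RPPH1, had medians of −0.032 in 22RV1 (9 genes) and 0.052 in PC3 (10 genes). ZNF143 was the furthest from 0 in 22RV1, at −0.29. SNAPC1, a subunit of the complex that binds these promoters, was the furthest in PC3, from 31.4 to 49.1 TPM, a log2 ratio of 0.63, and was at 2.07 and 2.03 TPM in 22RV1. Of the La and 3′ end factors (10 genes), 10 were lower in 22RV1 and 6 in PC3. EXOSC3 was the furthest down in 22RV1 at −0.34, and SSB, the La protein that binds new RNA polymerase III transcripts, was the furthest down in PC3, from 99.5 to 64.6 TPM, a log2 ratio of −0.61.

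**Figure D4:**
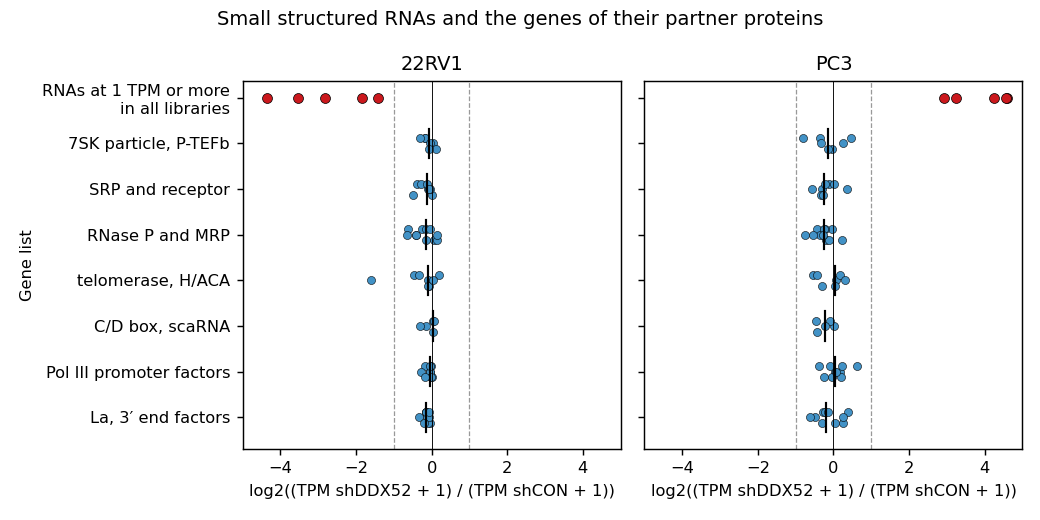
Log2 ratio of each gene in 22RV1 (left) and PC3 (right): the 5 RNAs with at least 1 TPM in all libraries (red) and the genes of 7 lists of partner and processing proteins (blue), with the list median as a black bar and dashed lines at 2-fold. The RNAs lie between −4.36 and −1.42 (22RV1) and between 2.91 and 4.60 (PC3), and NAF1 in 22RV1 is the only blue point outside the dashed lines.

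RN7SK, RMRP and RPPH1 start close to a protein-coding gene that runs the other way. RN7SK starts 243 bases from GSTA4, RMRP 273 bases from CCDC107 and RPPH1 175 bases from PARP2. GSTA4 was at 17.1, 13.6, 7.85 and 6.13 TPM, with both 22RV1 libraries first and shCON before shDDX52. CCDC107 was at 26.7, 32.1, 45.2 and 40.9 TPM and PARP2, a DNA repair enzyme, at 29.9, 22.2, 25.8 and 28.4. Their log2 ratios lay between −0.41 and 0.26 (22RV1) and between −0.31 and 0.13 (PC3), so none was past 2-fold. The nearest starts to the others were those of LRR1 for RN7SL1, NEMF for RN7SL2, ACTRT3 for TERC and TMEM167B for SCARNA2, at 4835 to 12117 bases, with log2 ratios between −0.48 and −0.060 in both lines.

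**Figure D5:**
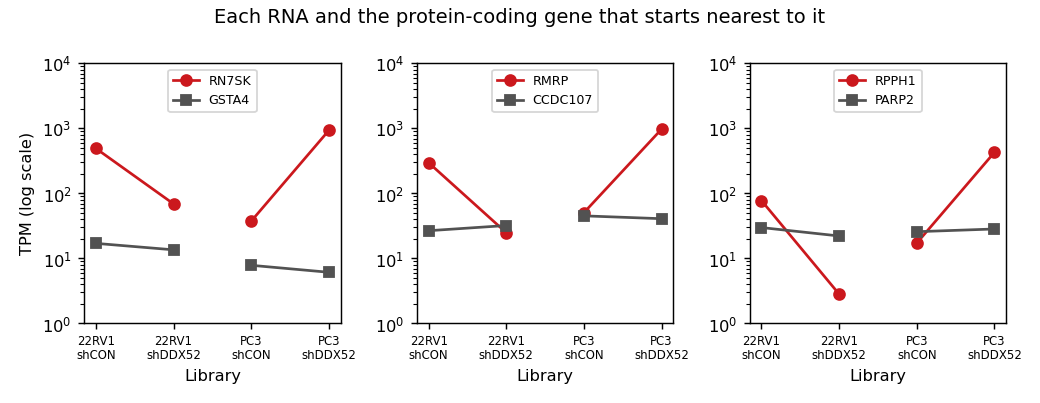
TPM on a log scale of RN7SK, RMRP and RPPH1 (red) and of the protein-coding gene that starts nearest to each, GSTA4, CCDC107 and PARP2 (grey), with lines joining the libraries of 1 cell line. The red lines slope down in 22RV1 and up in PC3, while the grey lines stay between 6.13 and 45.2 TPM.

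Other RNAs without a poly(A) tail were compared as a group. The 5153 further genes annotated as snRNA, snoRNA, scaRNA, misc_RNA, ribozyme, scRNA, rRNA or vault RNA in GENCODE 29 summed to 9716 TPM under shCON and 1271 under shDDX52 in 22RV1, and to 1574 and 22306 TPM in PC3. Of the 109 with at least 1 TPM in 22RV1, 45 (41.3%) were lower and 46 (42.2%) were higher past 2-fold with shDDX52, against 2.86% and 2.24% of all genes. In PC3, 35 (32.1%) were lower and 58 (53.2%) higher of 109, against 3.44% and 2.86% of all genes. Of 51 measured in both lines, 17 were past 2-fold lower in 22RV1 and higher in PC3, and 10 were the reverse. Over all genes these shares were 0.411% and 0.312%. The counts of this paragraph take each identifier as 1 gene, also where identifiers had the same values. Of the 17, 4 were rRNA identifiers with 1 shared set of values. Of the 10, 7 were snRNA genes, among them RNU1-1, RNU1-2 and RNU1-3 with identical values. The counts are therefore not counts of separate RNAs. The rRNA genes made up 5953 of the 9716 TPM and 15410 of the 22306 TPM, and these were the same 5.8S value in 4 identifiers. Without rRNA the sums were 3764 TPM under shCON and 839 under shDDX52 in 22RV1, and 1117 and 6897 TPM in PC3. By type, snRNA genes summed to 3225, 166, 171 and 5240 TPM in this order. The snoRNA genes summed to 231, 292, 196 and 567 TPM. The misc_RNA genes other than the members summed to 197, 229, 203 and 342 TPM. Both sums were higher with shDDX52 in both lines, but the single genes went both ways. The misc_RNA sum left out only the members, so further 7SL and 7SK copies were not removed. Among these was RN7SL3, at 15.1 TPM under shCON and 106 under shDDX52 in PC3. Past 2-fold in 22RV1, 11 of 17 snoRNA genes were lower and 4 higher, and in PC3, 5 of 26 were lower and 18 higher. Of the misc_RNA genes, 17 of 55 were lower and 28 higher in 22RV1, and 16 of 45 were lower and 18 higher in PC3. RNU4-1, a U4 snRNA gene, was at 436 TPM in 22RV1 shCON, at 867 in PC3 shDDX52 and listed at 0 in the other 2 libraries, and RNU4-2 had the same pattern with 378 and 842 TPM. RNU2-2P was at 61.8 and 167 TPM in those libraries and likewise at 0 in the others. The U1 genes RNU1-1, RNU1-2 and RNU1-3 had identical values, 8.94 TPM in the 22RV1 library with shDDX52, 5.25 TPM in the PC3 control and 0 in the other 2, and RNU1-4 alone was at 2930 TPM in PC3 shDDX52.

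A hand-written list of small nucleolar RNAs (22 identifiers for 15 symbols, 13 of them at 0 in all libraries) held a minor part of the snoRNA sum in 22RV1 and summed to 24.4 TPM under shCON and 0.98 under shDDX52 in 22RV1, and to 6.67 and 182 TPM in PC3. Past 2-fold were SNORD3A, the U3 RNA of rRNA processing, at 4.90, 0.87, 0.78 and 19.1 TPM, SNORA73A, at 10.5, 0, 2.91 and 38.8 TPM, SNORA73B, at 4.70, 0, 0 and 48.7 TPM, and SNORD3D in both lines, and SNORA63, SNORA74A and SNORA53 in PC3. The small Cajal body RNAs other than SCARNA2 (22 identifiers, 14 of them at 0 throughout) summed to 20.8, 7.98, 3.98 and 27.0 TPM. Of 6 that reached 1 TPM in 22RV1, SCARNA9, SCARNA10 and SCARNA16 were at least 2-fold lower and SCARNA13 at least 2-fold higher. Of 6 in PC3, SCARNA5, SCARNA6, SCARNA7, SCARNA10 and SCARNA12 were at least 2-fold higher. All of these values were 7.41 TPM or less. Except SCARNA10 in 22RV1 and SCARNA5 in PC3, each reached 1 TPM only in its higher library. Over all genes, 2.86% were 2-fold lower and 2.24% higher in 22RV1, and 3.44% and 2.86% in PC3.

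Few of these genes were detected. All 952 of these genes shorter than 100 bases were listed at 0 in the 4 libraries, and so were 98.7% of the 2615 genes of 100 to 149 bases. At least 1 TPM in a library was reached by 14.6% of the 316 genes of 150 to 199 bases and by 6.67% of the 150 genes of 200 to 249 bases. The 7 Y and vault RNA genes that were found, which are RNA polymerase III products too, were all at 0. Of the 1120 genes with 250 bases or more, a range that takes in all members, 6.96% reached 1 TPM in at least 1 library. The part of library preparation in the differences between the shRNAs was not tested, nor was that of the 5.8S rRNA, which moved with the members in both lines.

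One abundant RNA polymerase III transcript did not follow the members, and it was chosen after its values were seen. BCYRN1, the BC200 RNA, has a 5′ part that derives from an Alu element, a repeat related to 7SL. It was at 103 TPM under shCON and 148 under shDDX52 in 22RV1, and at 547 and 730 TPM in PC3. BCYRN1 was therefore higher with shDDX52 in both lines, with log2 ratios of 0.52 and 0.42, neither past 2-fold. It is unlike the abundant members in sequence. Its longest run of A was 11 bases, against 2 in RPPH1, 3 in RN7SK and RMRP and 4 in RN7SL1 and RN7SL2. Of its 151 windows of 50 bases, 100% were found in this gene alone. The part of these traits in its values was not tested.

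Genes most like the members in their pair of log2 ratios were sought among 5978 genes with at least 10 TPM in a library of each line, by the distance to the members' median among those that reached 1 TPM (−2.33 in 22RV1 and 3.75 in PC3). The nearest 5 were RNVU1-25, SNORA73A, a gene named U2 (ENSG00000276596), RNVU1-31 and ENSG00000274630, at distances of 0.94 to 1.93. RNVU1-25 and RNVU1-31 are variant U1 snRNA genes and had 45.8, 16.8, 0 and 13.3 TPM and 13.6, 0, 0 and 12.01 TPM. ENSG00000274630, a 156-base transcript annotated as antisense, was at 104, 50.3, 44.6 and 226 TPM, and since the strand setting of the counting is not given in the sources used here, reads of the opposite strand could be among these. All 5 were annotated at 206 bases or less. The search used the same log2 ratios that the members were chosen on. Its filter can be passed through the high library of a line alone, as by RNVU1-31. The members' median also takes in SCARNA2, which passed only through the libraries where it was high. Nothing is therefore read from which genes were nearest.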

How the data were processed

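Total RNA of 2 cell lines carrying shCON or shDDX52 had been sequenced, 4 libraries in all. The authors deposited TPM values per Ensembl gene, in 1 table per cell line, after mapping on the Majorbio online platform. The submitters' processing notes name CASAVA, HISAT2 and hg19 without roles, while the listed identifiers include those that GENCODE 29 places on GRCh38, so the build behind the values is uncertain and positions refer to GENCODE 29. The quantification program, its strand setting and its handling of shared reads are not given in the sources used here. Of the 60671 identifiers, 42020 were paired with a symbol and 58453 were in GENCODE 29.

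The log2 ratio was that of shDDX52 to shCON after a pseudocount of 1 TPM was added to both, which understates differences of low genes. Genes below 1 TPM in both libraries of a line were left out of its counts. TERC stayed in the direction counts and in the medians over all 7 genes. A 2-fold difference was the only threshold, no p-value was computed, and TPM keeps no depth, so no interval is given. The code that computes the log2 ratios was checked on simulated data, which is no test of the differences. Gene lists were written by hand. Genes were named by a rule: all members, list genes past 2-fold or furthest from 0 in a line, DDX52, the nearest protein-coding starts, the 5 genes most like the members and the 3 highest 7SL or 7SK copies. BCYRN1, 5.8S rRNA and second identifiers were added after values were seen, as were some examples such as LARP7. The members and lists were chosen with earlier results of these data known. Windows of 50 bases were compared across GENCODE 29 transcripts, and RN7SL1 was aligned globally to its copies. Alternatives covered the pseudocount, filter, scaling, centring and summing of copies. Biopython 1.88, pandas 2.3.3, matplotlib 3.10.9 and numpy 2.4.6 were run under Python 3.11.15. Some sequences and genes are not reported here.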

Additional observations from a re-analysis of the deposited data

Results flagged for a closer look

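In 6 genes the difference between the shRNAs was past 2-fold in both cell lines and went in opposite directions. With 1 library per condition, the difference between the lines was not tested, and the members were chosen for it. The log2 ratio in PC3 minus that in 22RV1 was 8.92 for RPPH1, 7.77 for RMRP, 7.42 for RN7SK, 5.08 for RN7SL1, 4.34 for RN7SL2 and 2.39 for SCARNA2. The value of SCARNA2 rests on levels of 2.54 TPM or less. The 5.8S rRNA genes moved the same way, with log2 ratios of −3.77 and 5.06, and their part in the result was not tested.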

How the results depend on the processing

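The 31 results were each recomputed under a few alternative settings, which gave 157 recomputed values over all results. Of these values, 138 moved by less than 1.5-fold, 19 moved by more and 0 reversed. Sums over 7SL copies were entered for RN7SL1 and again for RN7SL2. The log2 ratios of RN7SK, RN7SL1, RN7SL2, RMRP and RPPH1 lay between −4.73 and −1.35 in 22RV1 and between 2.91 and 4.74 in PC3 under each alternative run. The median over the 7 genes, −1.83 in 22RV1, was −2.83 with a pseudocount of 0.1 TPM. Over the 5 members that reached 1 TPM in all 4 libraries, chosen after seeing the data, the medians were −2.82 in 22RV1 and 4.24 in PC3. The count past 2-fold was 5 or 6 genes in each line, since SCARNA2 was at −0.34 in 22RV1 and 0.43 in PC3 with a pseudocount of 5 TPM. RPPH1 in 22RV1 was −3.40 with that pseudocount. TERC summed with its second identifier, also chosen after seeing the data, was at 0.63 in 22RV1 and 1.51 in PC3. Recomputing TPM over nuclear protein-coding genes moved the median of all genes in PC3 from −0.036 to 0.083. Among all genes with at least 5 TPM, 169 were lower and 131 higher past 2-fold in 22RV1, against 413 and 323 with at least 1 TPM, and 238 and 211 in PC3, against 490 and 408. No paired analysis was possible because no group holds a second sample. The depth behind each TPM is unknown, so the precision of the low values of TERC and SCARNA2 cannot be given.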
